A study of Rattus rattus with 18 samples.

Results

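The arrays of remote limb postconditioning (PostC) compared miRNA levels between 2 dissected brain regions, core and peri, of the same 3 rats. They were the 6 arrays with core.postC or peri.postC in their titles, 3 of each, out of 18 in the series, and the rat number in the title paired them. The other 12 arrays came from 3 sham-operated rats and 3 rats with transient middle cerebral artery occlusion (tMCAO), in which a filament closes the artery and is then withdrawn. According to the study's methods the rats were male. All 9 animals were Sprague Dawley rats and each gave 1 core and 1 peri array, so a group had 3 rats. The sample labels do not say whether the PostC rats also underwent occlusion, while the design text of the series speaks of tMCAO-PostC tissue. Their age and the PostC protocol are not given in the sources used here. The study's methods give several times of sacrifice after reperfusion for transient occlusion, without saying which applies to the arrays. The labels assign core to temporo-parietal cortex and peri to striatum, and the study's methods give these tissues the other way round. The regions are therefore called core and peri below, and a difference between ischemic zones cannot be told apart from a difference between cortex and striatum.

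miRNAs are short RNAs that lower the translation and stability of mRNAs, which they recognise mainly through their seed, bases 2 to 8 from the 5′ end. After an arterial occlusion, the core is the zone of deepest flow loss and the surrounding penumbra keeps part of its supply. In remote limb postconditioning, blood flow to a limb is interrupted briefly after a stroke, a procedure known to protect the brain in animal models. Brain tissue is rich in miR-124-3p and miR-128-3p of neurons, and in miR-219a and miR-338 of oligodendrocytes.

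The mature sequences of the miRNAs on which the core-peri comparison turned are given below as the array design lists them, 5′ to 3′, with the seed in capitals. The first 5 had the largest excess in the core.
miR-149-3p: gGGACGGGggcggugcug
miR-6215: uUUAGGGUugcagagccagg
miR-762: gCGGGGCUagggccggga
miR-3473: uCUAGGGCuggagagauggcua
miR-21-5p: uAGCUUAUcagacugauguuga
miR-1224: gUGAGGACuggggagguggag
miR-3064-3p: uUUGCCACacugcaacaccuuaca
miR-3591: aACACCAUugucacacucca
The next 3 were lower in the core of every PostC rat.
miR-29b-3p: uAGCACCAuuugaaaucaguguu
miR-338-3p: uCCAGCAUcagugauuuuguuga
miR-411-5p: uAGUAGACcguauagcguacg

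None of these 11 seeds was shared between them. Among the tested miRNAs, the miR-29b-3p seed was shared by miR-29a-3p and miR-29c-3p, and miR-29c-3p was 3 edits away. miR-149-3p and miR-762 were the most GC-rich of the 11, with 83.3% G or C each, against a median of 47.8% over the 343 tested miRNAs, whereas miR-6215 had 55.0% and miR-3473 54.5%. The letters GGG, searched for in the mature sequence only, occurred in miR-149-3p, miR-6215, miR-762, miR-3473 and miR-1224 and in 18.1% of the tested miRNAs. Apart from the first 4, the 58 other carriers had a median core minus peri difference of 0.19 on the log2 scale, with 4 higher and 9 lower in the core of every rat. Over all tested miRNAs, 12.8% were higher and 9.04% lower in the core of every rat. The longer run UAGGG, which contains GGG, occurred in 3 of these first 4, namely miR-6215, miR-762 and miR-3473, and in 1.46% of all tested miRNAs. The 2 other carriers had a median difference of -0.46. Neither run was set before these sequences were seen, so their occurrence is a description and not a test.

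The 6 arrays differed in signal, and rat 3 differed from the other 2 rats. The 612 empty spots of each array set a detection limit, placed 3 scaled median absolute deviations above their median, and a miRNA counted as detected if the median of its 4 spots passed it. Of 761 miRNAs, 198, 240 and 605 were detected in the core of rats 1, 2 and 3, and 336, 524 and 188 in their peri. The core therefore had fewer detected miRNAs than the peri in rats 1 and 2 and more in rat 3. The region labels of rat 3 were used as given, and no value used here identifies the region independently. An exchange of its 2 labels would turn the sign of every rat 3 difference below. As labelled, the 4 miRNAs chosen for rising in the tMCAO core (miR-149-3p, miR-762, miR-3473 and miR-6215) had a median core minus peri difference of 5.10 in rat 3. In the other 8 rats their median was also above 0, from 0.86 to 4.50, in the 3 tMCAO rats by that choice. Over the tested miRNAs, core 3 correlated at 0.88 with peri 1 and with peri 2, and at 0.77 and 0.82 with core 1 and core 2. Peri 3 correlated at 0.83 with peri 1 and with peri 2, and at 0.76 and 0.87 with core 1 and core 2. Whether the labels were exchanged was not tested. With a detection limit set from the dimmest miRNA spots instead, the detected counts lay between 464 and 546. On core 1, core 2 and peri 3 the typical miRNA spot was dimmer than the typical empty one. Levels below are log2 intensities after background correction and normalization over all 18 arrays, and a difference of 1 on this scale is a doubling.

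**Figure D1:**
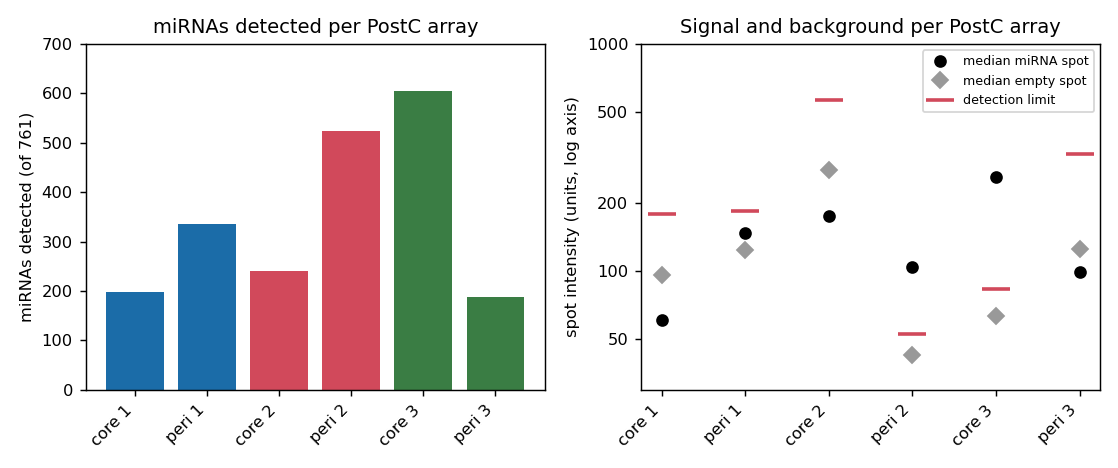
The left panel plots the number of miRNAs detected on each PostC array, of 761, and the right panel the median miRNA spot, the median empty spot and the detection limit in intensity units on a log axis. Core 3 had 605 detected miRNAs and peri 3 had 188, the highest and the lowest of the 6, and the grey diamond lies above the black point on core 1, core 2 and peri 3.

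Brain markers were present in both regions. miR-124-3p, miR-9a-5p and miR-128-3p were detected on 6 of 6 PostC arrays, miR-338-3p on 5 and miR-219a-5p on 3. Of the markers of other tissues, miR-451-5p of red blood cells and miR-133a-3p of muscle were detected on 6 arrays and miR-204-5p, which is abundant in choroid plexus, on 5. miR-142-3p of leukocytes and miR-144-3p of red blood cells were detected on none, and miR-223-3p of myeloid cells on 1. The muscle miRNAs miR-1-3p and miR-206-3p were detected on 3 arrays each, and miR-122-5p of liver and miR-200c-3p of epithelium on 1 each. No miRNA was used as a marker of cortex or of striatum, so the dissection could not be checked.

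The comparison of core with peri asked which miRNAs differed between the regions of a PostC brain, with the rat as a block in limma. At an adjusted p of 0.05 no miRNA of 343 tested passed (0%), and the smallest adjusted p was 0.22. At an unadjusted p under 0.05 there were 6 (1.75%), of which 5 were higher in the core and 1, miR-153-3p, was lower. With 3 rats an exact paired permutation test of a single miRNA cannot go below a two-sided p of 0.25.

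The largest excess in the core was that of miR-149-3p, the GC-rich arm of the miR-149 hairpin. Its log2 level was 12.89, 11.34 and 12.97 in the core of rats 1, 2 and 3, and 9.02, 8.71 and 7.87 in their peri. All 3 core levels exceeded all 3 peri levels, and the peri level of rat 3 was not above the detection limit of that array, whose lowest detected miRNA had a level of 8.83. The mean difference was 3.87 (SE 0.71, limma adjusted p = 0.22), and the 3 rats gave 3.87, 2.63 and 5.10, the last set against a spot at background. The mean difference was 5.44 with plain background subtraction and 3.34 with a correction for GC content. The authors' own normalized intensities for miR-149-3p were 4677, 2792 and 10081 units in the core and 427, 384 and 106 in the peri. The excess was seen in those values in all 3 rats too.

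miR-6215, miR-762 and miR-3473 followed. miR-6215 had core levels of 14.93, 12.81 and 14.58 and peri levels of 11.92, 11.88 and 9.36, a mean difference of 3.05 (SE 0.74, limma adjusted p = 0.42). miR-762 had core levels of 11.52, 10.86 and 12.33 and peri levels of 8.83, 8.94 and 7.93, a mean difference of 3.00 (SE 0.74, limma adjusted p = 0.42). miR-3473 had core levels of 13.26, 10.69 and 13.08 and peri levels of 10.10, 10.14 and 7.99, a mean difference of 2.93 (SE 0.88, limma adjusted p = 0.74). In each of the 3 the lowest core level exceeded the highest peri level, and the gap was narrowest in rat 2 and widest in rat 3. In rat 2 the difference was 0.93 for miR-6215, 1.92 for miR-762 and 0.55 for miR-3473. In rat 3, in which miR-762 and miR-3473 were not detected in the peri, the differences were 5.22, 4.40 and 5.09. These differences were thus largest in the rat whose core array had the most and whose peri array the fewest detected miRNAs, and the part of that gap in them was not tested.

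The fifth was miR-21-5p, which is induced by injury in many tissues. Its core levels were 14.39, 13.12 and 13.13, and its peri levels were 11.88, 12.83 and 9.53. The regions did not overlap, but in rat 2 they differed by only 0.29, against 2.51 in rat 1 and 3.61 in rat 3. The mean difference was 2.14 (SE 0.64, limma adjusted p = 0.74), a 4.4-fold excess in the core. Unlike miR-149-3p, it had a GC content of 36.4%.

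How many miRNAs passed the threshold depended on the processing and on the rats in the fit. With plain background subtraction, miR-149-3p, miR-6215, miR-762, miR-3473 and miR-21-5p all passed, with limma adjusted p from 6.66e-08 (miR-6215) to 0.0052 (miR-762). With a correction for GC content, miR-149-3p, miR-6215, miR-3473 and miR-21-5p passed, with limma adjusted p of at most 0.0101. When only miRNAs detected on all 6 arrays were tested, miR-6215 passed with a limma adjusted p of 0.0042. Without rat 1 none passed. Without rat 2, 4 passed and all were higher in the core, namely miR-149-3p, miR-6215, miR-3473 and miR-21-5p, each at an adjusted p of 0.014 or below. Without rat 3, 9 passed. Of those, miR-149-3p and miR-6215 were higher in the core, and the other 7 were miR-132-5p, miR-494-5p, miR-3084a-5p, miR-3084b-5p, miR-7b, miR-1b and miR-200b-5p, all lower. All 7 were detected on peri 1, peri 2 and core 3 alone, so without rat 3 the fit set detected peri spots against core spots at background, and the miRNAs had passed the filter through the arrays on which they were high. miR-132-5p, an activity-regulated miRNA, had core minus peri differences of -3.06 and -2.29 in rats 1 and 2 and 1.73 in rat 3. Likewise, miR-494-5p differed by -2.10 and -4.08 in rats 1 and 2 and by 3.59 in rat 3. Among these 7, only miR-200b-5p was also lower in rat 3 (-0.33). Without the rat as a block, miR-149-3p passed with an adjusted p of 0.035, and with all 18 arrays in 1 fit, over 532 tested miRNAs, miR-149-3p and miR-762 passed with adjusted p of 0.012 and 0.034.

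**Figure D2:**
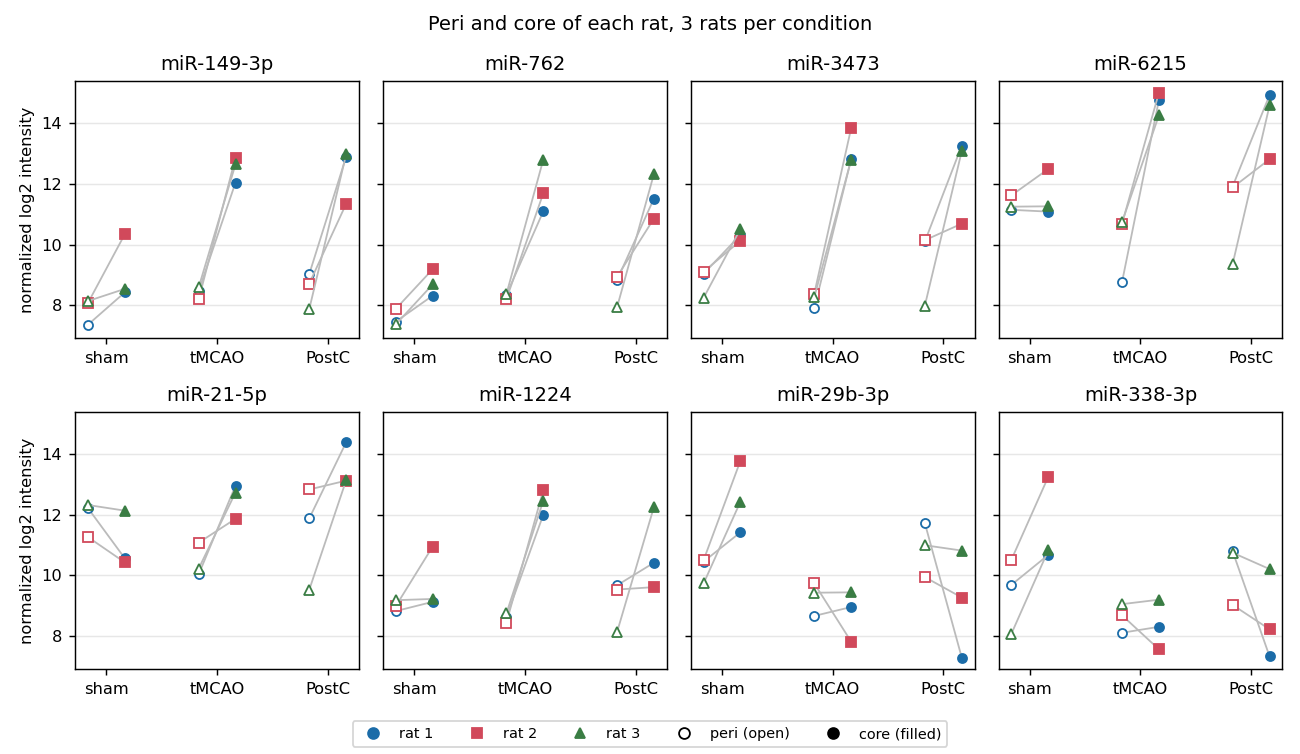
Each panel plots 1 miRNA, with the normalized log2 intensity of peri (open) and core (filled) joined for each of the 3 rats of the sham, tMCAO and PostC groups. In PostC the lines of miR-149-3p, miR-762, miR-3473, miR-6215, miR-21-5p and miR-1224 go up from peri to core in all 3 rats and those of miR-29b-3p and miR-338-3p go down, by amounts that differ between rats.

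A further 3 miRNAs were higher in the core of every PostC rat by more than 1.5 on average. miR-1224, which is made from a short intron, had core levels of 10.42, 9.61 and 12.26 and peri levels of 9.67, 9.53 and 8.13. Its regions overlapped, and the difference of 4.13 in rat 3 made up most of the mean of 1.65 (SE 0.90). miR-3064-3p differed by 1.19, 0.96 and 2.51 in rats 1 to 3, with a mean of 1.56 (SE 0.71). miR-3591 differed by 1.18, 0.17 and 3.27, with a mean of 1.54 (SE 0.80), and its nearest probe, miR-122-3p at 5 edits, differed by 0.07, 0.36 and 3.01. Whether the probes share signal was not tested. With plain background subtraction the means were 2.55 for miR-1224, 4.30 for miR-3064-3p and 3.71 for miR-3591. None of the 3 was detected in the peri of rat 3, and all had a limma adjusted p of 0.95.

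The largest deficit in the core among miRNAs with 1 sign in all rats was that of miR-29b-3p, a member of the miR-29 family, which represses collagens and other matrix proteins. Its core levels were 7.29, 9.27 and 10.82 and its peri levels 11.72, 9.94 and 10.99. The regions overlapped, and rat 1, whose core level was not above the detection limit, carried most of the difference with -4.43, against -0.67 and -0.18 in rats 2 and 3. The mean difference was -1.76 (SE 0.93, limma adjusted p = 0.95). miR-338-3p, which promotes oligodendrocyte differentiation, had the same layout. Its core levels were 7.33, 8.22 and 10.21 and its peri levels 10.79, 9.02 and 10.75, and it was not detected in the core of rat 1. The differences of -3.46, -0.80 and -0.54 averaged -1.60 (SE 0.81, limma adjusted p = 0.95). With plain background subtraction the means were -3.44 for miR-29b-3p and -3.29 for miR-338-3p.

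Another 6 miRNAs were lower in the core of all 3 rats, by between 0.74 and 1.07 on average, and were chosen by size among miRNAs with 1 sign in all rats and detection on all 3 peri arrays. miR-411-5p had core levels of 8.90, 9.82 and 9.41 and peri levels of 10.18, 10.05 and 10.95, all detected and not overlapping, with a mean difference of -1.02 (SE 0.68). The other 5 were miR-539-3p (-1.07), miR-708-5p (-0.96), miR-551b-3p (-0.93), miR-377-3p (-0.87) and miR-1843a-5p (-0.74). None of these 5 was above the detection limit in the core of rat 1, and miR-377-3p was also below it in the core of rat 2, so the size of these deficits rests in part on spots at background. With plain background subtraction, miR-1843a-5p was at -2.27 and miR-551b-3p at -2.37, and the other 4 lay between -0.98 and -1.32. The deficit of miR-1843a-5p came mostly from rat 3, with differences of -0.26, -0.23 and -1.73, and was -0.25 without that rat. miR-539-3p differed by only -0.001 in rat 2. The limma adjusted p was 0.95 for each of the 6.

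Among all tested miRNAs, the neuronal miR-153-3p, which represses α-synuclein, had the largest mean deficit, -1.99 (SE 0.76, limma adjusted p = 0.95). It was detected on all 6 arrays. Its peri levels were close to each other at 12.12, 11.89 and 12.26, whereas its core levels were 9.29, 11.93 and 9.07. The core was thus lower in rats 1 and 3 and level with the peri in rat 2, with differences of -2.82, 0.04 and -3.18.

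**Figure D3:**
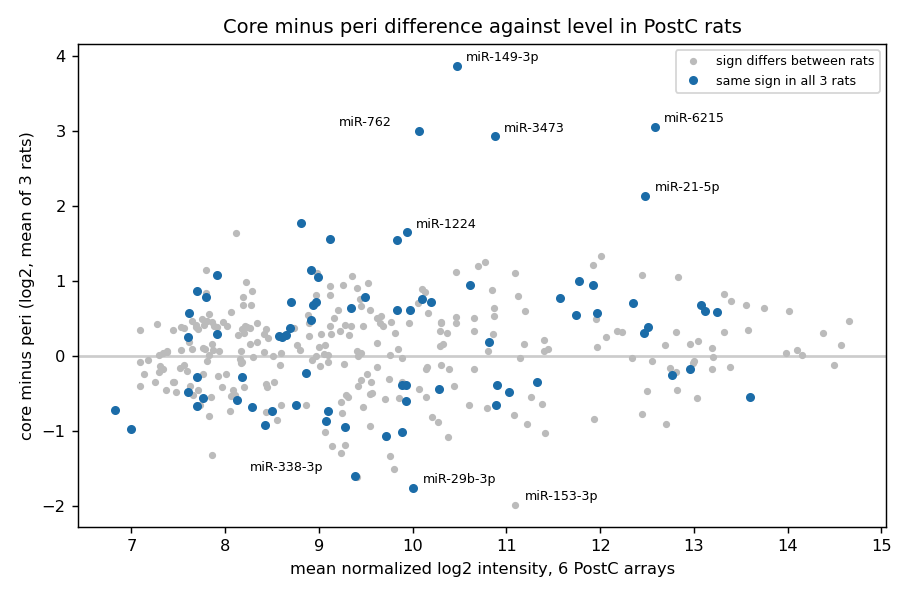
Each point is 1 of the 343 tested miRNAs, with its mean normalized log2 intensity over the 6 PostC arrays on the x axis and its mean core minus peri difference (log2) on the y axis. The 5 points above 2 are miR-149-3p, miR-6215, miR-762, miR-3473 and miR-21-5p, and the lowest point, at -1.99, is miR-153-3p.

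Agreement between the rats was limited beyond these miRNAs. The core minus peri difference had the same sign in all 3 rats for 75 of 343 miRNAs (21.9%), 44 higher in the core (12.8%) and 31 lower (9.04%). For the same 343 miRNAs, the sham rats shared a sign for 65 higher and 80 lower, and the tMCAO rats for 75 higher and 68 lower. Core and peri levels did not overlap for 35 miRNAs (10.2%), 22 higher (6.41%) and 13 lower (3.79%). The standard deviation of the difference across miRNAs was 1.28 in rat 1, 0.66 in rat 2 and 1.72 in rat 3. As a description across 343 miRNAs of the same arrays, the differences of rats 1 and 2 correlated with r = 0.36, those of rats 1 and 3 with -0.06 and those of rats 2 and 3 with -0.34. Rats 2 and 3 had the same sign for 40.8% of miRNAs, against 56% for rats 1 and 2.

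**Figure D4:**
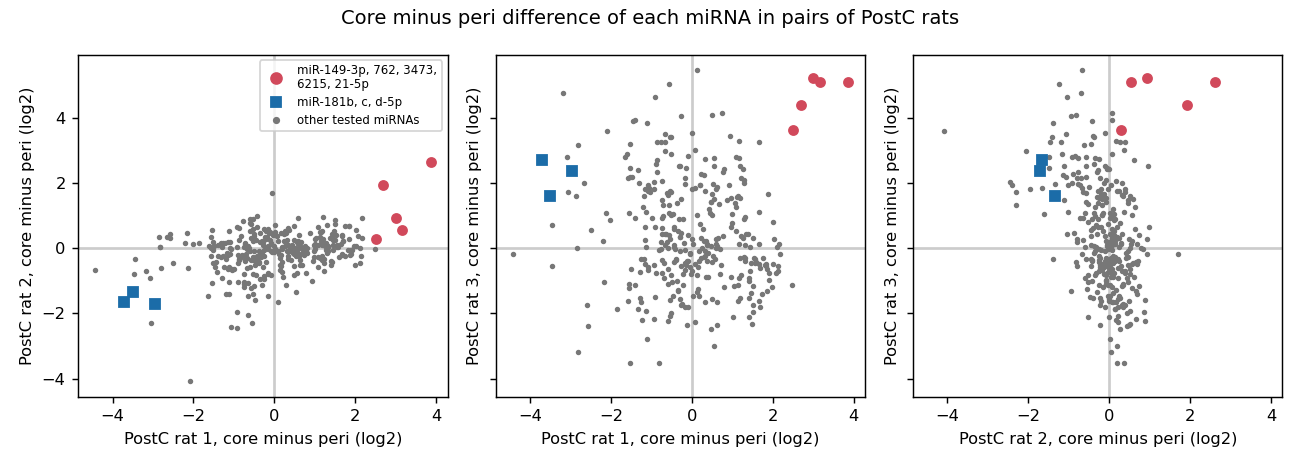
Each point is 1 of the 343 tested miRNAs, and each panel sets its core minus peri difference (log2) in 1 PostC rat against that in another. miR-149-3p, miR-762, miR-3473, miR-6215 and miR-21-5p (red circles) lie to the upper right in all 3 panels, while miR-181b-5p, miR-181c-5p and miR-181d-5p (blue squares) are below 0 in rats 1 and 2 and above 0 in rat 3.

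Whole arrays were also compared. Over the tested miRNAs, core and peri of the same rat correlated with r = 0.94 in rat 2, 0.80 in rat 1 and 0.63 in rat 3. The 3 core arrays correlated with each other at 0.77 to 0.89 and the 3 peri arrays at 0.83 to 0.96. Peri 1 and peri 2 were closest on average to the sham peri arrays (mean r 0.95 and 0.96), while peri 3 was closest to the tMCAO peri arrays (0.94). Core 1 was closest to the tMCAO core arrays (0.87) and core 2 to the tMCAO and the sham peri arrays (0.93 each). Core 3 reached at most 0.88 with any array, namely with peri 1 and peri 2, against 0.77 and 0.82 with core 1 and core 2. Among the PostC arrays, peri 3 was closest to core 2 (0.87), against 0.83 with peri 1 and with peri 2. The spread within PostC groups was wider than in the others, with a median SD per miRNA of 0.62 in the core and 0.52 in the peri, against 0.27 to 0.42 in the sham and tMCAO groups.

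Lists of miRNAs known from brain cell types, blood, muscle and families were then read in the same fit. Over all tested miRNAs the median difference was 0.10, 199 were higher in the core on average and 144 lower. No member of any list passed the adjusted threshold. Each list is given by its counts and its median, as a description.

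Neuronal lists had medians of the mean difference near that of all miRNAs, but their rats differed in sign. In rats 1 to 3 the medians were -0.53, -0.15 and 0.27 for the neuron-enriched list. For the activity-regulated list they were -0.39, -0.45 and 1.41, and over all tested miRNAs -0.05, -0.04 and 0.15. All 11 neuron-enriched miRNAs were tested, 6 higher in the core on average and 5 lower, with a median of 0.01. miR-124-3p, the most neuron-specific of them, differed by 0.53, -0.26 and -0.23 in the 3 rats (mean 0.01), a sign that turned under several normalizations. miR-128-3p differed by 0.46, -0.15 and 1.09. The arms of the miR-9a hairpin, which acts in neural progenitors, were apart in agreement, since miR-9a-3p was lower in every rat (mean -0.55, no overlap), whereas miR-9a-5p differed by -1.05, -0.66 and 1.83. In the other direction, miR-129-2-3p was higher in the core of every rat (mean 0.60, no overlap). The 5 activity-regulated miRNAs had a median of 0.16. The brightest probe of these, miR-132-3p, which CREB induces, was 0.48 higher, 0.09 lower and 1.41 higher in the core of rats 1 to 3, and miR-212-5p was lower in all 3 rats (mean -0.40).

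Of the oligodendrocyte list 4 of 5 members were tested, with a median of -0.35. miR-338-3p and miR-219a-2-3p were lower in the core of every rat, and miR-338-5p differed by 0.01. The differences of miR-219a-2-3p were -0.80, -0.21 and -0.05, and their mean of -0.35 was -0.13 without rat 1. In bulk tissue, fewer cells of a type and less RNA per cell cannot be told apart.

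The leukocyte and microglia list had 3 of 7 members tested, all higher in the core on average, with a median of 0.94. Besides miR-21-5p these were miR-150-5p, a miRNA of mature lymphocytes, and miR-146a-5p, which dampens NF-κB signalling. miR-150-5p had core levels of 12.35, 12.16 and 12.68 and peri levels of 11.75, 11.76 and 10.87, which did not overlap, with a mean difference of 0.94 (SE 0.52, limma adjusted p = 0.95). miR-146a-5p differed by 0.30, 0.47 and -0.28. Of the other 4, miR-142-3p was not detected on any PostC array, miR-155-5p and miR-223-3p on 1 core array each, and miR-142-5p on 1 core and 1 peri array.

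Members of the blood and vessel lists differed from each other in sign. miR-451-5p, the main red blood cell miRNA, differed by -0.59, 0.88 and -2.25 in the 3 rats, while miR-486, also of red blood cells, differed by 2.16, 0.30 and 0.12. Its mean was 0.86, 0.21 without rat 1 and 2.43 with plain background subtraction. miR-486 was not detected in the peri of rats 1 and 3 or in the core of rat 2, so in no rat were both regions above the limit. The endothelial miR-126a-3p differed by -0.74, 0.12 and -0.76. Of the smooth muscle miRNAs, miR-143-3p differed by 0.09, 0.22 and -2.25, and its mean of -0.65 turned to 0.16 without rat 3. The other, miR-145-5p, differed by 1.41, 0.43 and -0.91, and its mean of 0.31 turned to -0.24 without rat 1. Both arms of the hypoxia-induced miR-210 hairpin were higher in the core on average, but not in all rats. miR-210-5p differed by 1.27, -0.06 and 2.42 and miR-210-3p by 2.12, -0.45 and -0.55, the latter not detected in the core of rat 2 and the peri of rat 3. The 5 tested muscle miRNAs of 7 had a median of 0.07, and miR-204-5p, the only tested member of the choroid plexus and epithelium list of 7, differed by -1.61, 0.06 and 2.88 and was not detected in the peri of rat 3.

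Family lists split by rat. The 8 members of the let-7 family, which favours differentiation, stayed within -0.17 and 0.40, with let-7b-5p (0.38) and let-7d-5p (0.31) higher in every rat. The miR-30 family had a median of -0.16, with miR-30e-5p (-0.84) and miR-30a-5p (-0.77) lowest. In the miR-29 family all 3 members were lower in the core on average, by 0.12 for miR-29a-3p, 0.91 for miR-29c-3p and 1.76 for miR-29b-3p, and the median was -2.16 in rat 1, 0.14 in rat 2 and -0.41 in rat 3. In the miR-181 family the median was -3.22 in rat 1, -1.50 in rat 2 and 1.97 in rat 3. miR-181b-5p differed by -3.49, -1.34 and 1.59 and miR-181c-5p by -3.71, -1.65 and 2.71. Neither was detected in the core of rat 1, so their rat 1 values are set against spots at background. In contrast, miR-181a-5p, the brightest probe of the family, was detected on all 6 arrays and differed by 0.78, -0.09 and 0.36. The rat in which these values turned was the one whose detected counts ran the other way, and their relation was not tested.

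**Figure D5:**
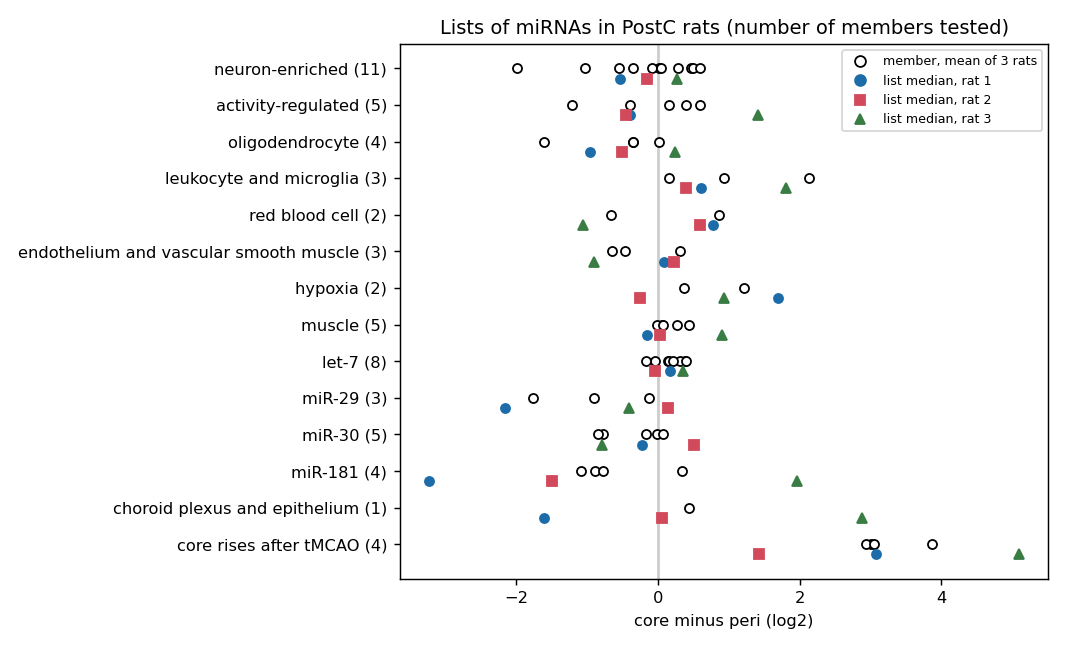
Open circles give the mean core minus peri difference (log2) of each tested member in the PostC rats, and coloured symbols the median of the list in each rat. The list of core rises after tMCAO holds miR-149-3p, miR-762, miR-3473 and miR-6215, chosen from the 9 that passed as higher in the tMCAO core. Its rat medians are 3.08, 1.43 and 5.10, and that choice bars a comparison with the other lists. The miR-181 medians run from -3.22 to 1.97.

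The same 4 miRNAs had been chosen on the tMCAO arrays, where all 4 rose in the core with a limma adjusted p of 0.0083 or below. The list leaves out 5 others that also rose there, namely miR-1224, miR-155-5p, miR-664-2-5p, let-7b-5p and let-7c-5p. Their mean PostC differences were 1.65, 0.97, 0.20, 0.38 and 0.16, in that order, below those of all 4 listed members. Among the PostC arrays, miR-155-5p was detected on 1 core array only and miR-664-2-5p on 1 core and 1 peri array. The values of these latter miRNAs therefore rest mostly on spots at background. The PostC values of the 4 listed members rest on other rats, although earlier results of those rats were known. The median core minus peri difference of these 4 was 4.25, 4.50 and 4.25 in the tMCAO rats and 3.08, 1.43 and 5.10 in the PostC rats. In the sham rats it was 0.96, 1.17 and 0.86. The lowest PostC rat, rat 2, was closer to the sham values. PostC rat 3 lay above every tMCAO rat, but miR-149-3p, miR-762 and miR-3473 were not detected in its peri. Its median of 5.10 is therefore set against spots at background, and its rank above the tMCAO rats is uncertain.

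Whether the core-peri difference in PostC differed from that of the other conditions was tested as an interaction in limma over all 18 arrays. Against sham, none of 532 miRNAs passed the adjusted threshold (0%, smallest adjusted p = 0.42), and 56 had an unadjusted p under 0.05 (10.5%), 27 higher (5.08%) and 29 lower (5.45%) in PostC. Without PostC rat 3, 7 passed, all lower in PostC. Against tMCAO, none passed either (0%, smallest adjusted p = 0.86), and 25 had an unadjusted p under 0.05 (4.7%), 12 higher (2.26%) and 13 lower (2.44%). In the same fit, the core-peri difference itself passed for 2 miRNAs in PostC (0.376%) and 9 in tMCAO (1.69%), all higher in the core. As a description across 532 miRNAs, the mean region difference in PostC correlated with that in tMCAO at r = 0.55 and with that in sham at -0.13, and these 3 sets of arrays shared the normalization.

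The miRNAs with the smallest p against sham were lower in the PostC core and higher in the sham core. miR-338-3p differed by 0.99, 2.73 and 2.75 in the sham rats and by -3.46, -0.80 and -0.54 in the PostC rats. The difference between them was -3.76 (SE 0.86, limma adjusted p = 0.42), and in tMCAO the mean difference was -0.26. Without PostC rat 3, miR-338-3p passed against sham with a limma adjusted p of 0.042. miR-29b-3p differed by 0.97, 3.28 and 2.70 in sham, and PostC minus sham was -4.08 (SE 1.13, limma adjusted p = 0.42). In the other direction, miR-149-3p had an excess in the PostC core that was 2.62 above that in sham (SE 0.73, limma adjusted p = 0.42). miR-21-5p was lower in the core of all 3 sham rats, with differences of -1.66, -0.84 and -0.19, and higher in all 3 PostC cores, and the difference between these was 3.03 (SE 0.86, limma adjusted p = 0.42). Its mean difference in tMCAO was 2.08, close to the 2.14 in PostC, with a difference between them of 0.06 (SE 0.86).

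Against tMCAO, the 4 leading miRNAs did not pass a test of difference, but the standard errors were wide. The PostC excess minus the tMCAO excess was -0.24 for miR-149-3p (SE 0.73), -0.56 for miR-762 (SE 0.70), -1.56 for miR-6215 (SE 0.98) and -2.04 for miR-3473 (SE 0.97). miR-1224, 3.82 higher in the tMCAO core, was 1.65 higher in the PostC core, a difference of -2.17 (SE 0.99, limma adjusted p = 0.86). The smallest p belonged to miR-679, which was lower in the core of all tMCAO rats, with differences of -1.48, -1.25 and -2.62, and differed by 1.33, 0.05 and 0.44 in the PostC rats, not detected in the peri of rat 3. Its interaction was 2.39 (SE 0.61, limma adjusted p = 0.86). miR-3064-3p followed with 2.10 (SE 0.62), though it was detected on 1 of the 6 tMCAO arrays. In the opposite direction, miR-1839-5p had an interaction of -1.25 (SE 0.45) and miR-664-2-5p of -1.21 (SE 0.39). miR-664-2-5p was detected on 1 core and 1 peri array of the PostC group, and its probe is 1 edit from that of miR-664-1-5p.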

How the data were processed

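Total RNA was tailed, labelled with Cy5 and hybridised to µParaflo arrays by LC Sciences, 1 array per rat and region. The extraction is given as miRNeasy in the labels and as Trizol in the study's methods. The authors deposited median spot intensity per array, not normalized, with 4 spots per miRNA, and a table of intensity that was background-subtracted and normalized by locally weighted regression. The latter is on a linear scale with no centring, with medians of 36.7 to 68.2 units on the PostC arrays. How its spots were combined is not given in the sources used here.

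Spot intensities, those of control and empty spots included, were corrected with normexp (offset 50), log2-transformed and normalized by cyclic loess over 18 arrays. The 4 spots of each miRNA were then averaged. miRNAs detected on at least 3 of 6 PostC arrays (343), or 3 of 18 arrays for interactions (532), were tested with limma 3.58.1 in R 4.3.3 (lmFit, eBayes with trend, rat as a fixed block, Benjamini-Hochberg). The pairing comes from the animal: core and peri of a number are from the same rat, although their deviations from the group means correlated at -0.43, -0.41 and -0.56. In the core-peri comparison, p-values rest on the spread between 3 rats, moderated across miRNAs. In the interactions and the fit of all 18 arrays, they rest on a spread shared by the 9 rats. The number of arrays limits precision.

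The named miRNAs were those past the threshold, the 8 largest differences each way with 1 sign in all rats and detection on all arrays of the brighter region, the 2 smallest p each way per interaction, and the 3 brightest members per list; miR-153-3p, miR-9a-3p, miR-181d-5p and other miRNAs outside this rule were named after their values were seen. The groups, lists and tests were chosen with earlier results of these data known. Alternatives covered background, normalization, filters, blocks, GC content, the tests and single rats; the deposited intensities with a floor of 50 were added after seeing the data. Sequences were read from the target column of the array files; no genome was used. The analysis steps were tested on simulated data.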

Additional observations from a re-analysis of the deposited data

Results flagged for a closer look

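The core minus peri difference had 1 sign in all 3 PostC rats and the opposite sign in all 3 rats of another condition for 9 of the named miRNAs, in 10 comparisons. Many named miRNAs were picked for 1 sign in all PostC rats or a small interaction p, which favours such reversals. Their share over all tested miRNAs was not computed, so the count is no result about these miRNAs. Each is given as the PostC difference minus that of the other condition on the log2 scale, from the interaction test in limma, and none passed the adjusted threshold. Against sham, the values were 3.03 for miR-21-5p, 1.63 for miR-679, -1.60 for miR-411-5p, -3.76 for miR-338-3p and -4.08 for miR-29b-3p, with adjusted p of 0.42 to 0.43. Against tMCAO, they were 2.39 for miR-679, 2.30 for miR-3591, 2.10 for miR-3064-3p, -0.89 for miR-219a-2-3p and -1.25 for miR-1839-5p, each with an adjusted p of 0.86. miR-3591 and miR-3064-3p were detected on 1 of the 6 tMCAO arrays each, and miR-679 differed by 0.05 in PostC rat 2.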

How the results depend on the processing

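The count of miRNAs past the threshold between PostC core and peri was 0, and it was 5 with plain background subtraction, 4 with the GC correction and the replicate block, 2 with all 18 arrays in the fit (532 tested in place of 343), and 1 when only miRNAs detected on every array were kept. Without the replicate block it was 1 (miR-149-3p), and the block changed no other call in the 3 comparisons. Leaving out single rats gave 0 to 9. Against sham, the count was 0 throughout, except that leaving out single rats gave 0 to 7, the 7 without PostC rat 3. Against tMCAO, it was 0 except for 1 (miR-664-2-5p, adjusted p = 0.016) with the deposited intensities and a floor of 50. The methods' t-test gave 13 miRNAs before adjustment when run unpaired and 6 when run paired, and 0 after adjustment either way. Plain subtraction moved the median over all tested miRNAs from 0.10 to 0.26, and quantile normalization to -0.019. The causes of these shifts were not tested.

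Of 56 single results, 36 kept their sign under every alternative run. Among them were the 8 excesses and 8 deficits named for having 1 sign in all 3 rats, a choice that fixes their sign when a rat is left out. The signs of the other 20 turned. miR-124-3p was -0.15 with plain subtraction, -0.013 with quantile normalization, -0.053 with median scaling, -0.22 with the deposited intensities at either floor, -0.17 with the GC correction and -0.016 with the PostC arrays normalized alone. miR-9a-5p was -0.093 with plain subtraction, -0.0046 with median scaling and -0.17 with the deposited intensities at either floor. miR-338-5p was -0.091 with quantile normalization, -0.038 with the deposited intensities at either floor and -0.069 with the PostC arrays alone. let-7a-5p and let-7c-5p were -0.090 and -0.14 with quantile normalization and -0.036 and -0.081 with the deposited intensities at either floor. miR-30c-5p was -0.096 with plain subtraction and -0.16 with the deposited intensities at either floor. With the GC correction, miR-133a-3p was -0.11, miR-212-3p -0.0039 and miR-30b-5p 0.036. With quantile normalization, miR-133a-3p was -0.042 and miR-212-3p -0.084. miR-133b-3p was 0.43 with plain subtraction and miR-1-3p -0.00039 with a floor of 50.

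Leaving out single rats gave a range across 0 for 18 miRNAs: miR-1-3p -0.97 to 1.25, miR-124-3p -0.25 to 0.15, miR-133a-3p -0.68 to 0.95, miR-133b-3p -0.62 to 0.74, miR-143-3p -1.08 to 0.16, miR-145-5p -0.24 to 0.92, miR-181b-5p -2.41 to 0.13, miR-181c-5p -2.68 to 0.53, miR-204-5p -0.77 to 1.47, miR-210-3p -0.50 to 0.84, miR-212-3p -0.59 to 0.55, miR-29a-3p -0.25 to 0.024, miR-30b-5p -0.31 to 0.22, miR-30c-5p -0.097 to 0.19, miR-30d-5p -0.50 to 0.15, miR-338-5p -0.25 to 0.19, miR-451-5p -1.42 to 0.14 and miR-9a-5p -0.86 to 0.58.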
